A study of Mus musculus with 8 samples.

Results

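The genes described here encode chemokines and their receptors, 47 of the 17097 genes measured in the ileum of Slc51a knockout and wild-type mice. They were taken by symbol, as every gene named Ccl, Ccr, Cxcl, Cxcr, Cx3cl or Cx3cr followed by a digit, and 33 were ligands and 14 receptors. RefSeq holds 61 symbols of that form, and the others were not analysed here. Each gene was represented by the probe set that carried its symbol alone and had the highest mean over all 8 arrays. The knockout group held 4 samples of ileal tissue from mice in which Slc51a is inactivated, and the wild-type group held 4. Slc51a encodes a subunit of the transporter that moves bile acids across the basolateral membrane of the ileal enterocyte. All mice were males of about 2 months on a C57BL/6 background, fasted for 4 h and anesthetized with ketamine-xylazine. The sources used here do not say whether the groups were littermates or how the allele was made.

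Chemokines are small secreted proteins that steer leukocytes, and they act on G protein-coupled receptors of the moving cell. The families CC, CXC and CX3C are named for the spacing of cysteines near the start of the protein. In the small intestine the epithelium attracts lymphocytes that sit between its cells and plasma cells that secrete IgA. Stromal cells of Peyer's patches and smaller follicles attract B lymphocytes, T lymphocytes and dendritic cells.

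The values are log2 array signals, so that each unit stands for a doubling, and the 8 array medians spanned 4.56 to 4.60. Every difference was taken as knockout minus wild type, over 4 samples of each genotype. Standard errors (SE) are limma's, with each gene's variance drawn towards that of all genes (moderation of the variance). The p values are limma's, adjusted over all 17097 genes, and a gene was called at 0.05. Slc51a itself was at 4.67, 4.50, 4.68 and 4.56 in the knockout samples, against 11.36, 11.41, 11.29 and 11.37 in wild type. The ileal markers Fabp6 and Slc10a2 had signals of 13.16 to 13.22 and 10.84 to 11.09 in the knockout, and of 13.08 to 13.14 and 11.32 to 11.57 in wild type. Hybridization controls were lowest on knockout arrays 3 and 4 and wild-type array 2, and results that change without these arrays are given with that value. A background level was set from 78 olfactory and vomeronasal receptor genes, which the ileum is not expected to express. The 95th percentile of their means was 4.77. By their mean over all 8 arrays, 27 family members lay above this level, and 20 lay below it and are called near background. The nearest member above was Ccr1 at 4.83, and the nearest below was Ccl17 at 4.72.

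Chemokine and receptor transcripts were mostly lower in the knockout, or not called. Of 47 members, 19 fell (40.4%), 1 rose (2.13%) and 27 did not pass. Over all 17097 genes 12.9% fell and 17.1% rose. The groups did not overlap in 16 of the members that were lower and in 0 that were higher, where they did not overlap in 12.8% of all genes in the lower direction and in 18.0% in the higher. The median difference of the members was -0.12, and that of all genes 0.01. Among the 27 members above background 15 fell, 1 rose and 11 did not pass, where 18.4% of all genes above background fell and 26.7% rose. Among the 20 members near background 4 fell and 0 rose, where 4.64% of such genes fell and 2.61% rose. By role, 12 of 33 ligands and 7 of 14 receptors fell. A fall of at least 1.5-fold was called for 7 members, all of them above background, where 2.77% of all genes had one. Since the ileum was sampled as bulk tissue, fewer cells of a type and less RNA per cell cannot be told apart.

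**Figure D1:**
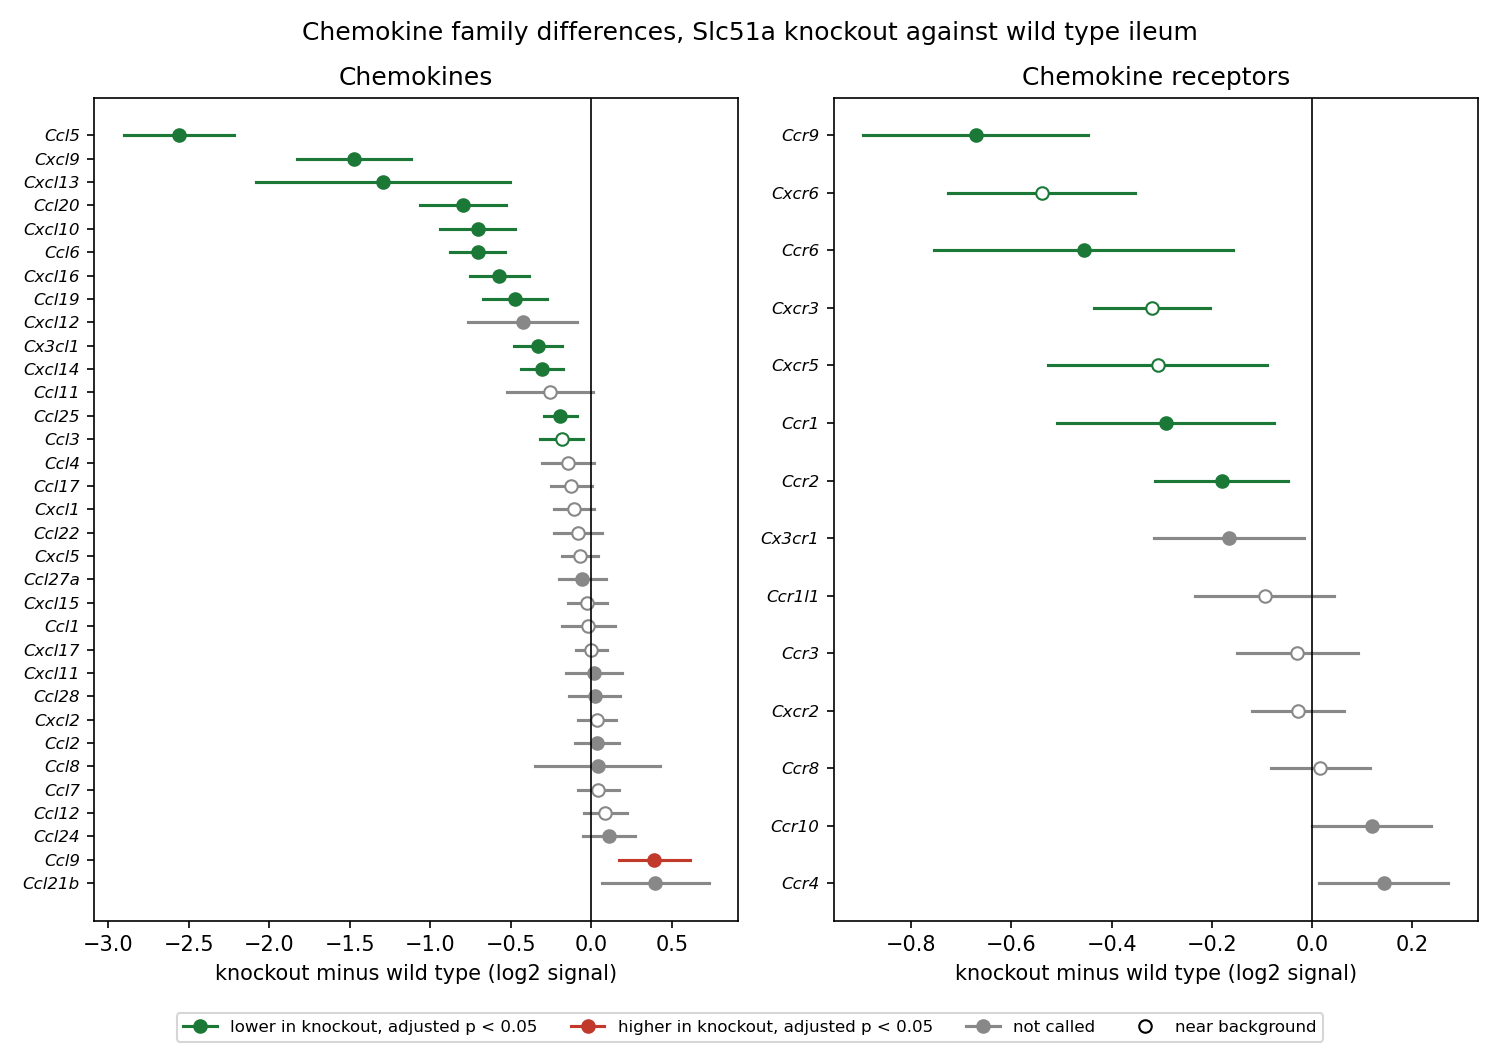
Difference in log2 signal, knockout minus wild type, for the 33 chemokines (left) and the 14 receptors (right), on separate horizontal scales. Points are differences, bars their 95% confidence intervals, and open points are members near background. Ccl5 at -2.56 and Cxcl9 at -1.47 lie farthest to the left, and Ccl9 at 0.39 is the member called higher.

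Among ligands that attract effector T lymphocytes Ccl5, Cxcl9, Cxcl10 and Cxcl16 fell and Cxcl11 was not called. Ccl5, also known as RANTES, is made by cytotoxic T lymphocytes and draws further T lymphocytes and monocytes. It was at 7.005, 7.19, 6.80 and 7.61 in the knockout samples, against 9.92, 9.45, 9.68 and 9.81 in wild type. The highest knockout sample lay well below the lowest wild-type sample. Ccl5 fell by 2.56 on the log2 scale, which is 5.91-fold (SE 0.15, adjusted p = 1.58e-06). Its mean was 7.15 ± 0.34 in the knockout and 9.71 ± 0.20 in wild type (SD, n = 4).

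Cxcl9, Cxcl10 and Cxcl11 are the interferon-induced ligands of the receptor Cxcr3, carried by activated T lymphocytes. Cxcl9 was at 6.04, 5.48, 5.59 and 6.13 in the knockout and at 6.92 to 7.50 in wild type, and the groups did not overlap. It fell by 1.47, or 2.78-fold (SE 0.16, adjusted p = 5.84e-05). Cxcl10 was at 5.12, 4.56, 4.80 and 4.80 in the knockout and at 5.57, 5.33, 5.60 and 5.59 in wild type. It fell by 0.71 (SE 0.11, adjusted p = 0.000486). The groups did not overlap, and the knockout samples lay around the background level. Cxcl11, which RefSeq annotates as a transcribed pseudogene in the C57BL/6J reference, was at 4.99 ± 0.10 in the knockout and 4.97 ± 0.15 in wild type (SD, n = 4). It differed by 0.02 (95% interval -0.16 to 0.19). The receptor Cxcr3 was near background, at 4.42, 4.42, 4.29 and 4.32 in the knockout and at 4.77, 4.65, 4.66 and 4.64 in wild type. It fell by 0.32 (SE 0.05, adjusted p = 0.000826), with no overlap between the groups.

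Cxcl9 and Cxcl10 are neighbouring genes that fell together, and the 250 bases before the start of each are shown to set them beside those of Ccl19 and Cxcl14. The windows are from RefSeq's GRCm38.p6 table, 5′ to 3′ on the gene's strand, and capitals mark matches on either strand to an NF-kappaB-like motif, GGG and CC with 5 bases between them, or to an interferon-response-like motif, GAAA and GAAA with 2 bases between them. The genes were chosen after their values were seen. Cxcl10, Ccl19 and Cxcl14 were the members, of 35 with a promoter in that table, whose window held the interferon-response-like motif.
Cxcl9, chr5:92328080-92328329, minus strand: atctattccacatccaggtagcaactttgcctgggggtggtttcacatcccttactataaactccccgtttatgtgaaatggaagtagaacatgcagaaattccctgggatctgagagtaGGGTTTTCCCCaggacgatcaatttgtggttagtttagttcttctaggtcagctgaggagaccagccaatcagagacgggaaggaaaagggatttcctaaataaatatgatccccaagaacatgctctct
Cxcl10, chr5:92348890-92349139, minus strand: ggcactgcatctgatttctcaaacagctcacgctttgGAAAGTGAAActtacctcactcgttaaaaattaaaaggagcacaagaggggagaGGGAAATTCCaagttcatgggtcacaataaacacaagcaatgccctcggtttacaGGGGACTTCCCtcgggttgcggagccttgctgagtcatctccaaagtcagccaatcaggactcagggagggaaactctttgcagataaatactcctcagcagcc
Ccl19, chr4:42756366-42756615, minus strand: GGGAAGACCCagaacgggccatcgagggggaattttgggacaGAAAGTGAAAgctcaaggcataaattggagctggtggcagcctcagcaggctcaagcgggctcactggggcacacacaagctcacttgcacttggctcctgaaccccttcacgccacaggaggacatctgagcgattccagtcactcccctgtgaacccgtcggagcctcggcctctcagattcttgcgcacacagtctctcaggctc
Cxcl14, chr13:56296552-56296801, minus strand: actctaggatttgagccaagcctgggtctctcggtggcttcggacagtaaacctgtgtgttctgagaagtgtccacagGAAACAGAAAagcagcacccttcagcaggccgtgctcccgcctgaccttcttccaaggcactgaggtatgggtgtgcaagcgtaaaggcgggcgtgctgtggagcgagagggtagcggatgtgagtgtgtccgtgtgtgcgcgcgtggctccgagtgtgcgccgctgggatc
The match begins 213 bases before the start in Cxcl10, 208 in Ccl19 and 172 in Cxcl14. The interferon-response-like motif was found in 3 of the 35 member genes (8.57%) and in 3.46% of all 27025 genes with a promoter in the table. The NF-kappaB-like motif was found in 22 of the 35 (62.9%) and in 48.7% of all genes. TTCNNNGAA, a STAT-like motif searched in the same way, was found in 4 of the 35 (11.4%) and in 8.13% of all genes. In Cxcl9 and Cxcl10 matches to the NF-kappaB-like motif that start 1 base apart overlap. A match is a description of letters, not of a site in use.

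Cxcl16 and Cxcr6 form another pair of this group, a membrane-bound ligand of epithelium and myeloid cells and its receptor on resident T lymphocytes. Cxcl16 was at 6.77, 6.71, 6.68 and 6.45 in the knockout, against 7.19, 7.15, 7.43 and 7.13 in wild type. It fell by 0.57 (SE 0.08, adjusted p = 0.00039), and a further probe set of the gene changed by -0.83. Cxcr6 lay near background, at 3.89, 3.64, 3.75 and 3.93 in the knockout and 4.40, 4.17, 4.29 and 4.51 in wild type. It fell by 0.54 (SE 0.08, adjusted p = 0.000616), as did a further probe set, at -0.35. Neither gene had overlapping groups.

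Ccl25 is the small-intestinal epithelial ligand of Ccr9, the receptor with which T lymphocytes and IgA plasma cells home to the small intestine. Ccr9 was at 5.76, 6.18, 5.98 and 5.98 in the knockout and at 6.88, 6.70, 6.47 and 6.53 in wild type. It fell by 0.67, or 1.59-fold (SE 0.10, adjusted p = 0.000509). The identifier of its probe set marks possible binding to other transcripts. Of its 3 other probe sets 1 fell, at -0.39, and those at -0.10 and 0.10 were not called. With the mean of its probe sets the difference was -0.26 (adjusted p = 0.00353). Ccl25 was at 11.43, 11.40, 11.32 and 11.41 in the knockout, against 11.56, 11.64, 11.60 and 11.53 in wild type, a fall of 0.19 (SE 0.05, adjusted p = 0.00936). The difference between the genotypes was small but exceeded the spread of either group, 0.05 (SD, n = 4). It was not called when those 3 arrays with low hybridization controls were left out (adjusted p = 0.122), and with the mean of its probe sets it was -0.01 (adjusted p = 0.920). The further probe set had mean signals of 4.88 in the knockout and 4.71 in wild type and was not called.

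Ccl28 and its receptor Ccr10, which bring IgA plasma cells to mucosal surfaces, were not called. Ccl28 was at 8.36, 8.47, 8.44 and 8.35 in the knockout and at 8.51, 8.40, 8.46 and 8.18 in wild type. The groups overlapped, and the difference was 0.02 (95% interval -0.14 to 0.17). Ccr10 was at 5.37, 5.43, 5.44 and 5.40 in the knockout, against 5.39, 5.32, 5.30 and 5.16 in wild type, a difference of 0.12 (SE 0.05, adjusted p = 0.129).

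**Figure D2:**
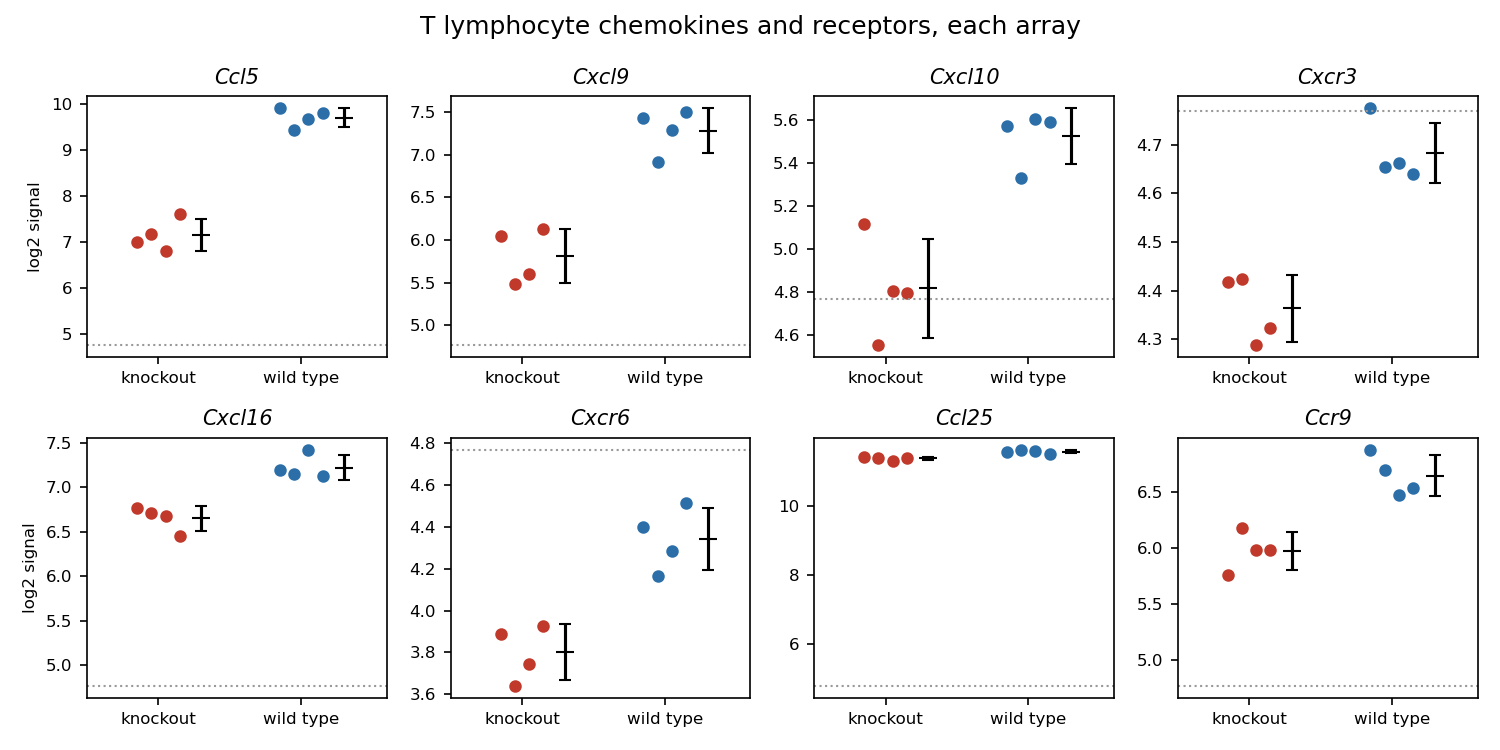
Log2 signal of 8 ligands and receptors of T lymphocyte recruitment on each array, knockout left (red) and wild type right (blue), with the mean and SD of 4 arrays beside the points. Each panel has its own scale, and the dotted line is the background level of 4.77. In all 8 panels the knockout and wild-type points are separate, and Cxcr3 and Cxcr6 lie around or below the line.

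Genes that mark T lymphocytes moved with these members. Of 11 measured markers 10 fell, 0 rose and 1, Cd4, did not pass, with a median difference of -0.67. Their mean signal was 5.24 to 5.43 in the knockout samples and 6.22 to 6.37 in wild type. Over all 17097 genes 12.9% fell and 17.1% rose, shares that also stand beside the marker counts below. The T cell receptor components Cd3g, Cd3d and Cd3e changed by -1.98, -0.97 and -0.23. Cd8a changed by -0.67 and the integrin Itgae, which holds lymphocytes in the epithelium, by -0.77. Cd8b1, Cd5 and Cd2 lay near background. Of 6 plasma cell markers 2 fell, Prdm1 by 0.69 and Xbp1 by 0.16, and 4 did not pass. The latter were Jchain, Derl3, Irf4 and Tnfrsf17, with differences of -0.18, -0.22, -0.05 and 0.10. The 6 had mean signals of 7.70 to 7.77 in the knockout and 7.88 to 8.01 in wild type. The part of the T lymphocyte and plasma cell markers in the chemokine differences was not tested.

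Of the members that organise lymphoid follicles Cxcl13, Cxcr5, Ccl20, Ccr6 and Ccl19 fell, and Ccl21b and Cxcl12 were not called. Cxcl13, which follicular stroma secretes to attract B lymphocytes, was at 5.15, 6.45, 6.89 and 6.79 in the knockout. In wild type it was at 7.08, 8.01, 8.07 and 7.31. The groups did not overlap, although knockout sample 1 stood far below the others. Cxcl13 fell by 1.29, or 2.45-fold (SE 0.36, adjusted p = 0.0176), and a further probe set fell by 0.94. Leaving out wild-type sample 2 ended the call (adjusted p = 0.0540), as did leaving out wild-type sample 3 (0.0532) and fitting eBayes with a trend and robustly (0.0869). Its receptor Cxcr5, found on B lymphocytes and follicular helper T lymphocytes, was near background, at 4.01, 3.80, 4.22 and 4.15 in the knockout and 4.13, 4.47, 4.42 and 4.39 in wild type. The groups overlapped through wild-type sample 1. Cxcr5 fell by 0.31 (SE 0.10, adjusted p = 0.0361), a call lost without any of knockout samples 1 and 2 and wild-type samples 2, 3 and 4 (adjusted p from 0.0783 to 0.0981).

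Ccl20, made by the epithelium over follicles, attracts cells with the receptor Ccr6, among them B lymphocytes and immature dendritic cells. Ccl20 was at 5.62, 5.75, 5.66 and 5.47 in the knockout, against 6.52, 6.44, 6.70 and 6.03 in wild type. All knockout samples lay below all wild-type samples. It fell by 0.80, or 1.74-fold (SE 0.12, adjusted p = 0.000515). Ccr6 was at 5.27, 5.63, 5.51 and 5.81 in the knockout and at 5.70, 6.31, 6.10 and 5.93 in wild type, where knockout sample 4 lay above wild-type sample 1. It fell by 0.46 (SE 0.14, adjusted p = 0.0254). The call was lost without knockout sample 1 or 3 or wild-type sample 2 or 3 (adjusted p from 0.0605 to 0.0695), and when those 3 arrays with low hybridization controls were left out (0.0565).

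Ccl19 and the Ccl21 genes guide T lymphocytes and mature dendritic cells within lymphoid tissue, and those measured did not move together. Ccl19 was at 5.40, 5.37, 5.34 and 5.16 in the knockout, against 5.68, 5.71, 6.07 and 5.71 in wild type. It fell by 0.48 (SE 0.09, adjusted p = 0.00207) with no overlap. Ccl21b was at 8.04, 7.86, 7.87 and 8.42 in the knockout and at 7.64, 7.28, 7.96 and 7.71 in wild type, and the groups overlapped. Its difference of 0.40 (SE 0.15) was not called (adjusted p = 0.0690), but it was without wild type replicate 3 (0.0278). The mouse genome holds near-identical copies of Ccl21, and the probe set's identifier marks binding to several transcripts, so the signal cannot be given to a single copy. Cxcl12, a stromal ligand that retains many leukocytes, was at 6.90, 7.53, 7.43 and 7.42 in the knockout and at 7.62, 7.49, 8.13 and 7.75 in wild type. Its difference of -0.43 (SE 0.15) was not called (adjusted p = 0.0579). It was called without wild type replicate 2 (0.0388) and without knockout replicate 2 (0.0462), and likewise with quantile normalisation (0.0434) and cyclic loess (0.0399). With the mean of its probe sets the difference was -0.11 (0.263), the other 2 probe sets being at 0.12 and -0.03 and not called. It was -0.29 without knockout replicate 1 (0.130) and -0.30 without wild type replicate 3 (0.148).

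**Figure D3:**
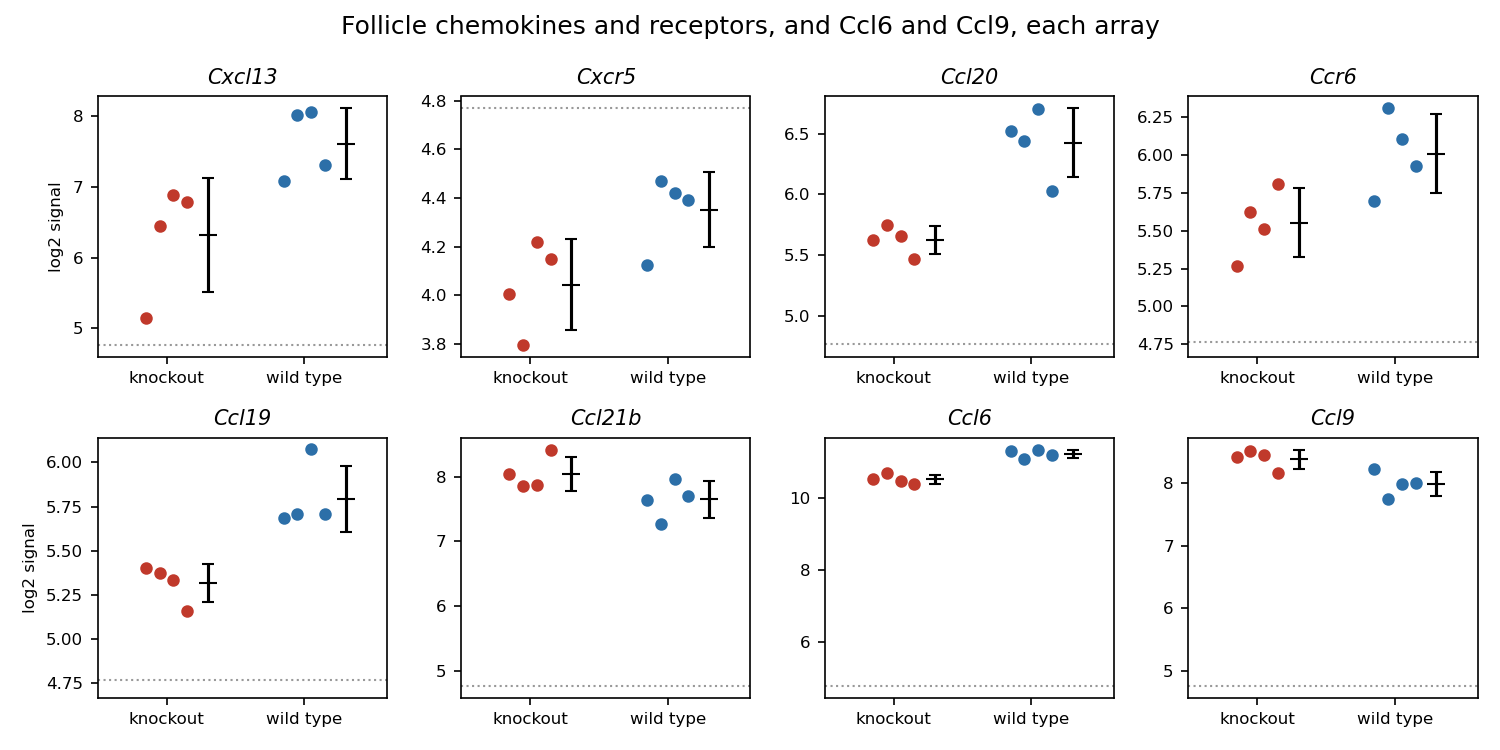
Log2 signal of 6 follicle ligands and receptors, and of Ccl6 and Ccl9, on each array, knockout left (red) and wild type right (blue), with the mean and SD of 4 arrays beside the points. Each panel has its own scale, and the dotted line is the background level of 4.77. Cxcl13 spreads over 5.15 to 6.89 in the knockout, and Ccl9 and Ccl21b are the panels whose knockout mean is the higher.

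Of 9 B lymphocyte markers 7 fell and 2 did not pass, with a median difference of -0.45. Their mean signal was 4.73, 5.005, 5.09 and 5.20 in the knockout samples and 5.32, 5.80, 5.77 and 5.63 in wild type. Sample 1 was the lowest of its genotype in both groups, as it was for Cxcl13 and Ccr6. Blk, Cr2 and Pax5 lay near background. Of 6 genes listed for the epithelium over follicles 4 fell, among them the transcription factor Spib by 1.05 and Gp2, near background, by 0.22. The member of that list that rose was Ccl9. In which cells Spib fell cannot be told from bulk tissue. Of 3 measured markers of follicular stroma 2 fell. Clu, abundant in follicular dendritic cells but not confined to them, changed by -1.48, and Madcam1, near background, by -0.26. Tnfsf11, also near background, differed by 0.06 and was not called. How many follicles each sample held is unknown here, and the part of these markers in the result was not tested.

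Ligands of monocytes, macrophages and dendritic cells moved in both directions. Ccl6, a CC ligand of rodents, was at 10.53, 10.71, 10.47 and 10.41 in the knockout, against 11.33, 11.08, 11.34 and 11.20 in wild type. It fell by 0.71, or 1.63-fold (SE 0.08, adjusted p = 6.35e-05), and the groups were well apart. Bulk tissue does not show which cells made Ccl6. Ccl9, a ligand of Ccr1 that in mice draws dendritic cells to the epithelium over Peyer's patches, was the member that rose. It was at 8.40, 8.49, 8.44 and 8.15 in the knockout and at 8.21, 7.74, 7.97 and 7.99 in wild type, so that knockout sample 4 lay just below wild-type sample 1. The rise was 0.39, or 1.31-fold (SE 0.10, adjusted p = 0.0120), and a further probe set rose by 0.62 (adjusted p = 0.0292). Leaving out each array in turn kept the rise between 0.31 and 0.47 and its adjusted p at or under 0.0361. Without moderation of the variance it was not called (adjusted p = 0.0683).

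Ccr1 and Ccr2, receptors of monocytes, fell by small amounts. Ccr1 was at 4.79, 4.81, 4.76 and 4.36 in the knockout and at 4.93, 4.90, 4.92 and 5.14 in wild type. It fell by 0.29 (SE 0.10, adjusted p = 0.0444), with a knockout mean of 4.68 that is under the background level. Ccr2 was at 4.84, 4.96, 4.93 and 4.76 in the knockout and at 5.07, 5.16, 4.98 and 5.003 in wild type. It fell by 0.18 (SE 0.06, adjusted p = 0.0420). Its 3 other probe sets, at -0.11, 0.02 and 0.07, were not called, and the mean of its probe sets differed by -0.05 (adjusted p = 0.374). The other probe set of Ccr1, at -0.06, was not called either, and the mean of its probe sets differed by -0.18 (adjusted p = 0.0415). When those 3 arrays with low hybridization controls were left out, neither Ccr1 (adjusted p = 0.141) nor Ccr2 (0.265) was called. Both groups were just separate for both genes. The call of Ccr1 was lost without any of wild-type samples 1 to 4 or knockout samples 3 and 4 (adjusted p from 0.0563 to 0.122). That of Ccr2 was lost without any of wild-type samples 1, 2 and 4 or knockout samples 1, 3 and 4 (0.0501 to 0.113). The Ccr2 ligands Ccl2, Ccl7 and Ccl12 were not called, with differences of 0.03, 0.04 and 0.09, and neither was Ccl8, at 0.04. Of these Ccl2 and Ccl8 lay above background, and the 95% interval for Ccl8 ran from -0.35 to 0.43. Its samples had the wider spread, 6.41 to 7.03 in the knockout and 6.34 to 7.16 in wild type.

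Cx3cl1, a membrane-anchored ligand of epithelium and endothelium, was at 7.13, 6.996, 6.98 and 7.09 in the knockout, against 7.43, 7.49, 7.20 and 7.39 in wild type. It fell by 0.33 (SE 0.07, adjusted p = 0.00335), and a further probe set fell by 0.25. With those 3 arrays left out the difference was -0.28 (adjusted p = 0.0605). Its receptor Cx3cr1, a marker of intestinal macrophages, was at 5.39, 5.26, 5.43 and 5.24 in the knockout and at 5.61, 5.38, 5.43 and 5.56 in wild type. The groups overlapped, and the difference of -0.17 (SE 0.07) was not called (adjusted p = 0.0908). Cxcl14, which epithelia express without stimulation, was at 5.01, 5.20, 5.11 and 5.16 in the knockout and at 5.32, 5.41, 5.48 and 5.52 in wild type. It fell by 0.31 (SE 0.06, adjusted p = 0.00228), and a further probe set, with mean signals of 4.20 in the knockout and 4.69 in wild type, changed by -0.49. The ligands of activated macrophages Ccl3 and Ccl4 lay near background. Ccl3 fell by 0.18 (adjusted p = 0.0398), a call lost without any of knockout samples 2, 3 and 4 or wild-type samples 1, 2 and 4 (0.0593 to 0.112). Ccl4 differed by -0.15 (adjusted p = 0.174) and was called without knockout replicate 1 (0.0311).

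Of 14 macrophage and dendritic cell markers 7 fell, 1 rose and 6 did not pass, with a median difference of -0.29. Their mean signal was 6.79 to 6.91 in the knockout and 6.94 to 7.24 in wild type. The cathepsin Ctss changed by -0.82 and the complement gene C1qa by -0.65, and the endotoxin coreceptor Cd14 rose by 0.44. Of those that did not pass, C1qb, Adgre1, Csf1r and Zbtb46 lay above background, with differences of -0.42, -0.12, -0.07 and 0.03. Cd68 and Itgam lay near background. Their part in the result was not tested.

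**Figure D4:**
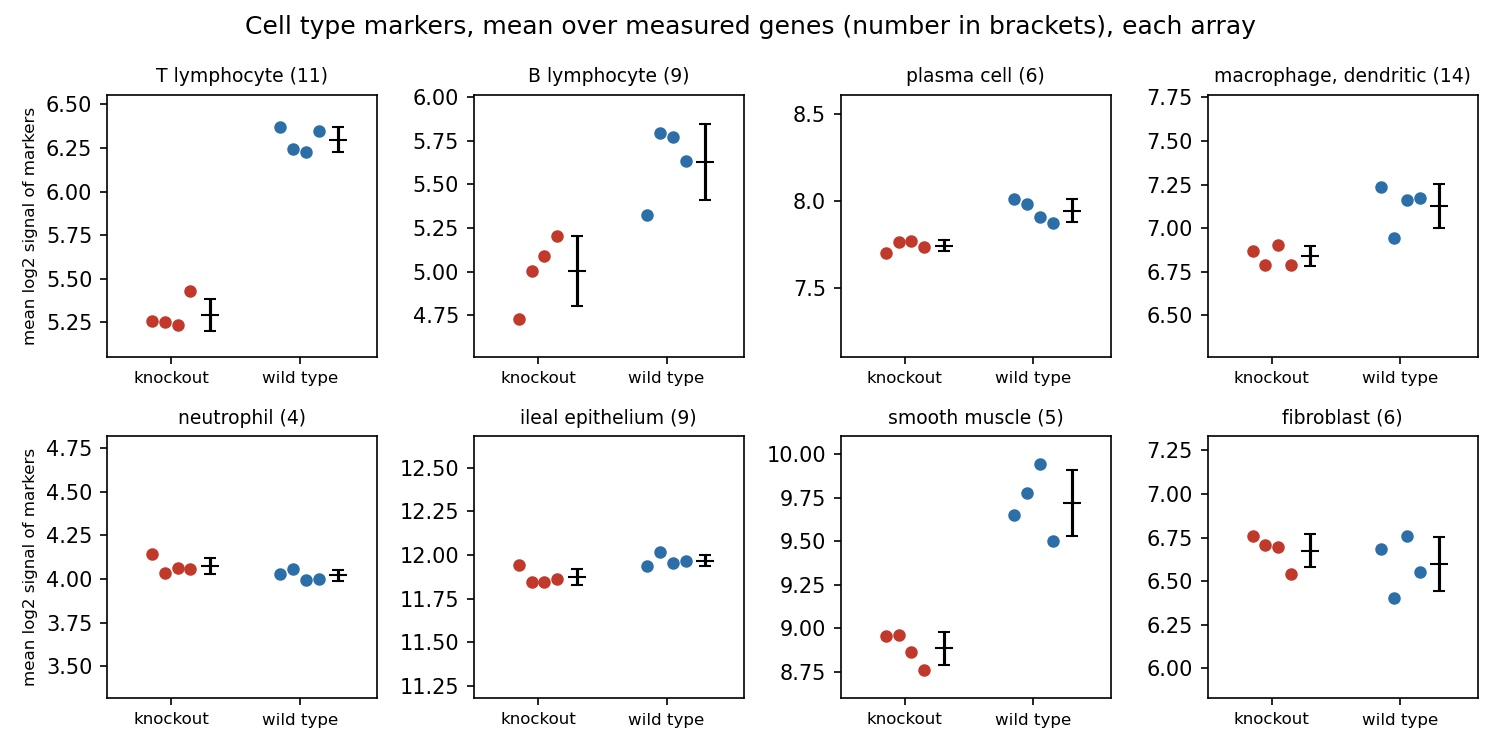
Mean log2 signal over the measured markers of 8 cell types on each array, knockout left (red) and wild type right (blue), with the mean and SD of 4 arrays. Every panel spans 1.5 log2 units. The means of T lymphocyte, B lymphocyte, plasma cell, macrophage and dendritic cell, and smooth muscle markers do not overlap between the genotypes. Of the single markers, 4 of 6 for plasma cells and 6 of 14 for macrophages and dendritic cells did not pass. T lymphocyte and smooth muscle markers lie at 5.24 to 5.43 and 8.76 to 8.96 in the knockout and 6.22 to 6.37 and 9.50 to 9.94 in wild type.

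The members grouped here under neutrophils, eosinophils and type 2 responses showed no called difference in the fit with all 8 arrays. The neutrophil ligands Cxcl1, Cxcl2, Cxcl5 and Cxcl15 and their receptor Cxcr2 all lay near background. The 4 ligands differed by -0.11, 0.03, -0.07 and -0.03, and Cxcr2 by -0.03 (95% interval -0.12 to 0.06). Of 4 neutrophil markers 0 were called, and S100a8 and S100a9 lay near background in both genotypes. The eosinophil ligands Ccl11 and Ccl24 differed by -0.26 and 0.11 and their receptor Ccr3 by -0.03, Ccl24 being the one above background. Ccl11 was called lower without knockout replicate 3 (adjusted p = 0.0268) and without wild type replicate 2 (0.0373). The Ccr4 ligands Ccl17 and Ccl22 lay near background and differed by -0.12 and -0.08, while Ccr4, of regulatory and type 2 helper T lymphocytes, was at 5.04 ± 0.06 in the knockout and 4.89 ± 0.10 in wild type (SD, n = 4). Its difference of 0.14 was not called (adjusted p = 0.0938) but was without wild type replicate 4 (0.0326), and Ccl17 was called lower without wild type replicate 2 (0.0424). Ccl1 and its receptor Ccr8, both near background, differed by -0.02 and 0.02.

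The remaining members were not called. Ccl27a, a ligand best known from skin, differed by -0.06. Cxcl17, a mucosal ligand, differed by 0.0005 and lay near background, as did Ccr1l1, which differed by -0.09.

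Chemokine genes lie in groups along the chromosomes, and neighbours did not move together throughout. In the RefSeq order the measured genes of the first group run Ccl5, Ccl9, Ccl6, Ccl3 and Ccl4, with differences of -2.56, 0.39, -0.71, -0.18 and -0.15. Ccl9 thus rose between genes that fell. The 6 genes of the group that holds Ccl2, Ccl7, Ccl11, Ccl12, Ccl8 and Ccl1 were not called, and of these only Ccl2 and Ccl8 lay above background. Next to Cxcl9 and Cxcl10, which fell, Cxcl11 differed by 0.02. In the receptor group Ccr9, Cxcr6, Ccr1 and Ccr2 fell, Cxcr6 being near background. The calls of Ccr1 and Ccr2 were lost in 16 and 17 of 23 settings tried. Ccr1l1 and Ccr3, which lie between Ccr1 and Ccr2 and were near background, were not called.

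**Figure D5:**
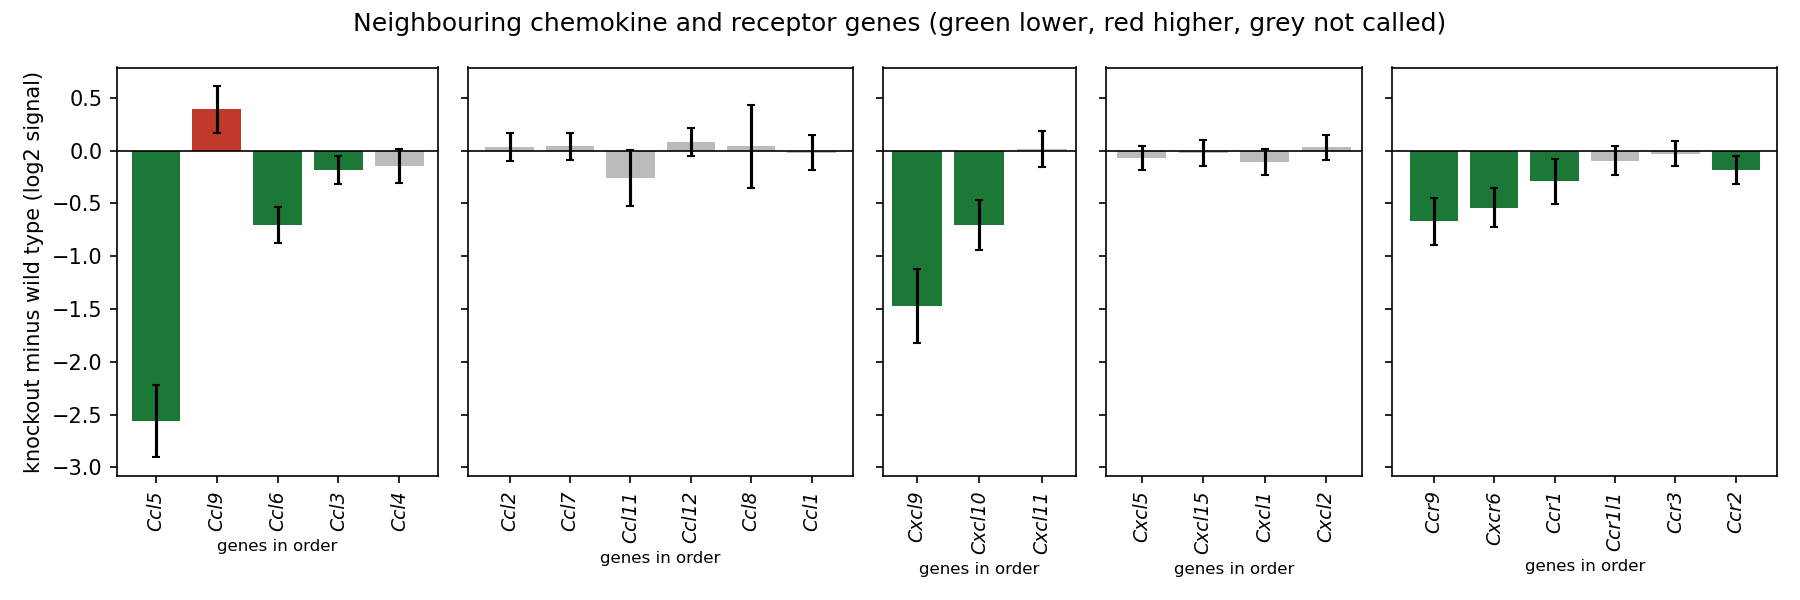
Difference in log2 signal, knockout minus wild type, of measured genes in their RefSeq order within 5 groups of neighbouring genes, with at most 2 other protein-coding genes between neighbours. Bars start at 0, error bars are 95% confidence intervals, and distances are not to scale. Ccl9 at 0.39 stands between Ccl5 at -2.56 and Ccl6 at -0.71.

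Other genes of the family were read from a list. Of 11 measured genes outside the naming rule, 2 fell, 0 rose and 9 did not pass, where 12.9% of all genes fell. Their median difference was -0.03. Those that fell were Xcl1, a ligand made by cytotoxic lymphocytes, by 0.32 (SE 0.08, adjusted p = 0.0113) and Ackr4, a receptor that removes Ccl19, Ccl21 and Ccl25, by 0.33 (SE 0.09, adjusted p = 0.0235). Both lay near background. The scavenging receptors Ackr2 and Ackr3 differed by -0.04 and 0.08 and were not called.

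Of 32 measured genes of receptor signalling, cell migration and adhesion, 22 fell, 0 rose and 10 did not pass. Endothelial and epithelial adhesion molecules are among them. The median difference was -0.31. Of the 32 genes 30 lay above background, where 18.4% of all genes fell and 26.7% rose. Dpp4, a brush border peptidase that also trims several chemokines, had mean signals of 10.39 in the knockout and 11.12 in wild type and changed by -0.73 (SE 0.06). Gng2, a G protein gamma subunit, changed by -0.92 (SE 0.09). Rgs1, which shortens receptor signals in lymphocytes, had mean signals of 4.98 in the knockout and 5.80 in wild type and changed by -0.82 (SE 0.08). The leukocyte GTPase Rac2 changed by -0.65 (SE 0.07). Gnb1, Rac1 and Gnai3, which most cells express, differed by -0.07, -0.04 and 0.08 and were not called. Gnai2 fell by 0.17 (adjusted p = 0.0151), and Arrb1, Elmo1, Plcb3 and Cdh1 by 0.31, 0.47, 0.14 and 0.16. Vav1, Plcb2 and Pik3cg, the last near background, differed by -0.08, -0.11 and -0.14 and were not called. Nor were Grk5, Grk6, Rgs2 and Vcam1.

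The spread between mice was not the same for all members that fell. Of the 15 above background, 9 had the larger SD in the knockout. No single knockout sample was the lowest throughout, since samples 1 to 4 were the lowest for 4, 2, 3 and 6 of them. Of 5 smooth muscle markers 5 fell. Fibroblast markers had mean signals of 6.54 to 6.76 in the knockout and 6.40 to 6.76 in wild type, with 1 of 6 higher, and epithelial markers 11.85 to 11.94 and 11.94 to 12.01, with 3 of 9 lower and 1 higher. Their part in the result was not tested.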

How the data were processed

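Ileal RNA of 4 knockout and 4 wild-type mice was run on 1 Affymetrix 3' array each, from 250 ng of RNA, per the labels' protocols. The values are the authors' deposited log2 signals per probe set, and the submitters' processing notes name RMA, with no software or version. RMA can compress low signals, so differences near background may be understated, which was not tested here. No detection calls, strip or scan date were used here, so no test of a batch was made. Precision is limited by the number of arrays.

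Of 45141 probe sets, 28898 had exactly 1 symbol, and 28689 of these were updated by Entrez identifier through RefSeq (GRCm38.p6). The comparison used limma 3.58.1 under R 4.3.3 (lmFit, eBayes, 2-sided, Benjamini-Hochberg over 17097 genes, no filter on dim genes), a procedure tested on simulated data. Replicates are numbered as biological in the labels. Values were given per sample for members called above background and for listed ligands and receptors; Ccl21b and the other members named were described to account for the whole family. Of the list of other family genes every called gene was named, and of the signalling list the 4 with the smallest adjusted p. All other genes of these lists that are named were chosen after their values were seen, as were the markers. Among these other genes were Gnb1, Rac1, Gnai3, Gnai2, Ackr2, Ackr3, Icam1, Vcam1, Itga4 and Itgb7. Marker lists for neutrophils, mast cells, endothelium and follicular stroma were read too. The members and lists were chosen with earlier results of these data known. Figures were drawn with matplotlib 3.10.9.

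Alternatives were a filter on dim genes, other normalisations, other choices of probe set, symbols, variance model, threshold and background level, the replicate number as a block, and leaving out each array. Leaving out the 3 arrays with the lowest hybridization controls, and these controls as a covariate, were added after the data were seen.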

Additional observations from a re-analysis of the deposited data

Results flagged for a closer look

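In 46 groups of 4 samples, those of the 23 members with values per sample, 4 samples stood apart from the rest of their genotype by Dixon's criterion, which chance alone meets in about 1 of 20 groups. Ccr1 had 2 of them, knockout sample 4 at 4.36, with the others at 4.76 to 4.81, and wild-type sample 4 at 5.14, with the others at 4.90 to 4.93. Cxcl10 was at 5.33 in wild-type sample 2, with the others at 5.57 to 5.60. Ccl19 was at 6.07 in wild-type sample 3, with the others at 5.68 to 5.71. Without that array Ccl19 changed by -0.38 and without wild-type sample 2 Cxcl10 changed by -0.77, and both were still called.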

How the results depend on the processing

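The counts moved by over 1.5 times in 42 recomputed cases and stayed within that in 175. Members called higher, and those above background, numbered 2 instead of 1 with quantile normalisation, with the replicate block and with hybridization controls added as a covariate, 3 at an adjusted p of 0.1, and 0 without moderation of the variance, at an adjusted p of 0.01 and at a fold of at least 1.5. Receptors above background called lower, 4 in the fit with all arrays, numbered 2 with quantile normalisation, median centring, cyclic loess, all probe sets and the background at the 99th percentile. They numbered 1 without moderation, at an adjusted p of 0.01, at a fold of 1.5 and without the 3 arrays lowest in hybridization controls. At a fold of 1.5, 7 members fell, all above background and 6 of them ligands, beside 351 genes higher and 474 lower of all genes and 8 of the 24 lower listed pathway genes. Over all genes 1446 instead of 2210 were lower at an adjusted p of 0.01 and 1414 without those 3 arrays.

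Without moderation of the variance 13 members were lower instead of 19, and above background 11 instead of 15. Cxcl13 (adjusted p = 0.103), Ccr6 (0.114), Ccr1 (0.139), Ccr2 (0.0823) and Cxcr5 (0.124) were then not called. Leaving out each array in turn gave 15 to 18 members lower and 1 to 2 higher, and above background 12 to 16 lower and 1 to 2 higher. It gave 10 to 12 ligands and 1 to 4 receptors above background lower, 21 to 24 pathway genes lower, and over all genes 2493 to 2853 higher and 1873 to 2100 lower. Ccl5, Ccl6, Ccl20, Cxcl9, Cxcl10 and Ccr9 were called lower in every setting tried. Ccl28, not called, reversed its sign to -0.028 with quantile normalisation, -0.054 with cyclic loess, and -0.017 with the covariate, and over the fits that leave out 1 array it ranged from -0.050 to 0.060, below 0 without knockout replicate 2 (-0.003) or wild type replicate 4. The cause was not tested.

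Samples with the same replicate number did not deviate together in every pair, with correlations of 0.22, -0.05, 0.11 and 0.16, and 5 of 8 samples correlated best with their own number. With the replicate block 19 members were lower and 2 higher, Cxcl12 was called (adjusted p = 0.0249) and Ccr1 was not (0.0768). Signals near background limit what can be said of 20 of the 47 members.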

Other observations

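Mast cell markers were mostly near background. Of 6 measured, 1 fell, Kit, which interstitial cells of Cajal also express, by 0.52 (adjusted p = 0.0182), and the proteases Mcpt1 and Mcpt2 differed by -0.47 and -0.11 without passing. Of 7 endothelial markers 3 fell and 1 rose. Plvap, of fenestrated capillaries, fell by 0.60, and Lyve1, of lymphatic vessels, rose by 0.41 (adjusted p = 0.00135). Icam1, an adhesion molecule for leukocytes on activated endothelium, changed by -0.44, with mean signals of 4.83 in the knockout and 5.27 in wild type, whereas Vcam1 differed by 0.04 and was not called. The integrin chains Itga4 and Itgb7, which together bind Madcam1 on vessels of the gut, fell by 0.54 and 0.34, and Madcam1, near background, fell by 0.26.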
